A study of Mus musculus with 18 samples.

Results

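The clustered protocadherin genes of the mouse lie side by side on chromosome 18, and the peaks examined here are all those that overlap chr18:37050000-37990000 (mm39), the 940 kb window given for the alpha, beta and gamma clusters. Over 15 peak lists, 201 of the 494083 peaks of the series on the autosomes, X and Y lay in the window, and 17407 lay elsewhere on the chromosome. They came from chromatin immunoprecipitation sequencing (ChIP-seq) of frozen cerebral cortex from 3 wild-type C57BL/6J female mice aged 14 weeks, numbered 5, 7 and 9. No mutant, treatment or second tissue was included. Each animal gave 1 list for each of 5 antibodies, so each antibody had 3 libraries and each number marks 1 animal. H3K27ac is an acetylated histone found at active promoters and enhancers, and H3K4me1 is a methylated histone found mainly at enhancers. PolII_S5P is RNA polymerase II phosphorylated on serine 5 of its tail repeat, the form found near start sites. MBD3 belongs to NuRD, a complex that remodels nucleosomes and deacetylates histones, and TDG is thymine DNA glycosylase, which removes thymine and oxidised cytosines from DNA. Bulk cortex mixes many cell types, so fewer cells carrying a mark and less of it in each cell cannot be told apart.

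Clustered protocadherins are cell adhesion proteins of neurons. In the alpha and gamma clusters each variable first exon has its own promoter and is joined by splicing to constant exons shared by the cluster, whereas each beta gene is a single exon. A neuron uses only a few of the variable promoters, and the combination marks its surface, by which branches of the same cell recognise and avoid each other. Distal enhancers beyond the variable exons, CTCF and cohesin are known to take part in the choice of promoter. In the RefSeq gene table of the earlier build GRCm38.p6, 58 clustered genes are listed, 14 alpha (2 of them the C-type Pcdhac1 and Pcdhac2), 22 beta and 22 gamma (12 of type A, 7 of type B and 3 of type C). Their order there is alpha, beta, gamma, with Slc25a2, Taf7 and Gm8242 between beta and gamma and Diaph1, a formin, after gamma. Coordinates were not moved between builds, so peaks are given by position and assigned to no gene.

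Peaks of 4 of the 5 antibodies occurred in the window, and they were unevenly placed (map of the 15 lists). H3K27ac gave 26, 32 and 25 peaks in animals 5, 7 and 9, or 83 in all. MBD3 gave 24, 24 and 14, or 62 in all, and H3K4me1 gave 18, 22 and 8, or 48 in all. PolII_S5P gave 0, 7 and 1. TDG gave none in any animal. Merged over all lists, the 201 peaks formed 43 sites, and 192 of the peaks (95.5%) lay in 2 stretches of 214 kb together, 22.8% of the window. The first, chr18:37250253-37351573, is 101 kb long and held 22 sites and 85 peaks. The second, chr18:37875079-37987815, is 113 kb long, ends near the right edge of the window, and held 14 sites and 107 peaks. The stretches join sites no more than 25 kb apart, a distance chosen after the positions were seen, and they are a description only. No matching share was computed for the rest of chromosome 18, so whether such gathering is particular to the window was not tested.

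**Figure D1:**
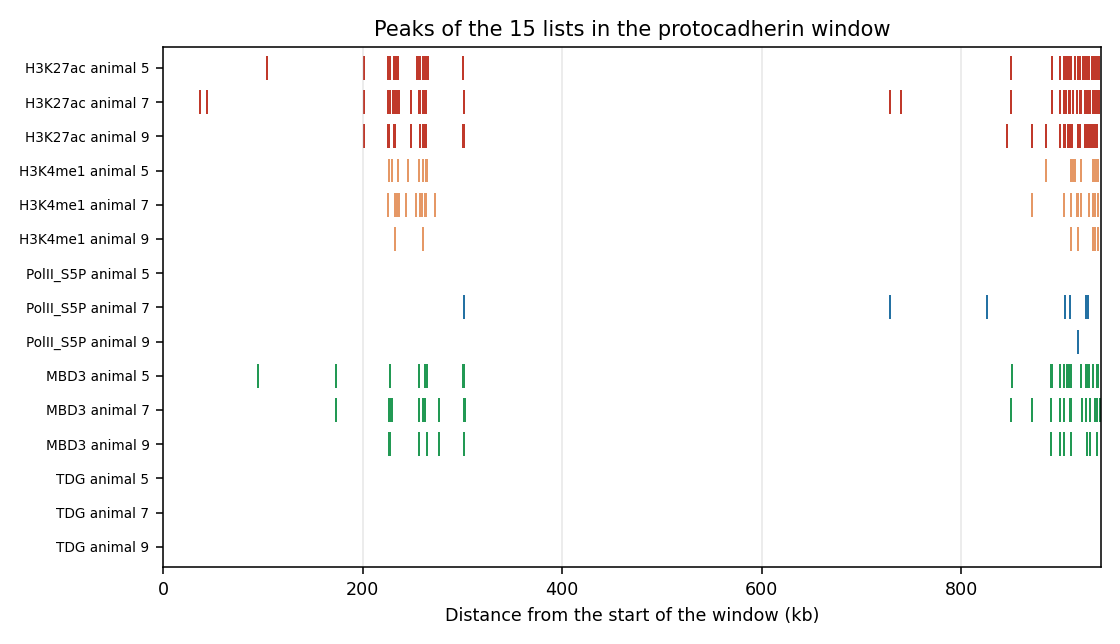
Each row is 1 of the 15 peak lists and each bar 1 peak, placed by its distance in kb from the start of the window; peaks narrower than 2 kb are drawn 2 kb wide. Peaks gather in 2 stretches of 101 and 113 kb, the space between holds 1 gap of 425 kb without a bar in any row, and the TDG rows are empty.

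The density of peaks in the window was compared with that in the rest of chromosome 18, taken between the outermost peaks (86.4 Mb). For H3K27ac, the window held 27.7, 34.0 and 26.6 peaks per Mb in animals 5, 7 and 9, and the rest of the chromosome 26.5, 27.3 and 23.9. The window was higher in 3 of 3 animals, with a mean log2 ratio of 0.20 ± 0.13 (SD, n = 3, exact two-sided sign-flip p = 0.25). For MBD3, the window held 25.5, 25.5 and 14.9 peaks per Mb and the rest 21.9, 24.2 and 14.8. Here too the window was higher in 3 of 3 animals, by 0.14 ± 0.10 on the log2 scale (SD, n = 3, exact p = 0.25), though by very little in animal 9. For H3K4me1, the densities were 19.1, 23.4 and 8.51 in the window and 15.9, 21.7 and 11.2 in the rest, higher in animals 5 and 7 and lower in animal 9. The mean log2 ratio of 0.05 ± 0.32 was smaller than its spread (SD, n = 3, exact p = 0.75), and was 0.51 among peaks with a −log10 q of at least 5 (exact p = 0.5). With 3 animals this test cannot give a p below 0.25, so none of these ratios could pass a threshold of 0.05.

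PolII_S5P gave a lower density in the window in animals 5 and 9 and about the same in animal 7. The window held 0, 7.45 and 1.06 peaks per Mb in animals 5, 7 and 9, against 1.31, 7.35 and 5.01 in the rest. At the density of the rest, 1.23, 6.91 and 4.71 peaks would have fallen in the window, and 0, 7 and 1 did. The mean log2 ratio of -0.95 ± 0.94 (SD, n = 3, exact p = 0.5) rests in animal 5 on the 0.5 added to each count, since a count of 0 there allows up to 3.19 peaks per Mb. Leaving out each animal gave -0.59 to -1.48 (without animals 9 and 7), and adding 1 peak to each count gave -0.45. The 3 lists have 4409, 19816 and 12691 peaks on the autosomes, X and Y. The shares of chromosome 18 peaks that lay in the window were 0, 1.09% and 0.230%, with exact 95% intervals that overlap (0 to 3.21%, 0.439 to 2.23% and 0.00583 to 1.28%). These and the other exact binomial intervals below cover counting error only.

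TDG could not be placed above or below the rest of the chromosome. Chromosome 18 as a whole had 0, 2 and 40 TDG peaks in animals 5, 7 and 9, and at that density 0.435 peaks would fall in the window in animal 9. Its nearest TDG peaks outside the window lay at chr18:38013141-38013381, 23.1 kb past the right edge, and 1428 kb before the left edge.

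The ratios of the 4 antibodies with enough peaks were also compared with each other. Antibody accounted for 0.567 of the variance of the log2 ratio over 12 libraries (eta squared, exact permutation p = 0.0915), and for 0.675 with labels permuted within animals (exact p = 0.115). Over the 6 pairs of antibodies, the largest difference was 1.15 on the log2 scale, between H3K27ac and PolII_S5P (exact p = 0.2, Benjamini-Hochberg adjusted p = 0.6), and the others had adjusted p-values of 0.6 to 0.9. A test of 3 libraries against 3 cannot give an exact p below 0.1.

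**Figure D2:**
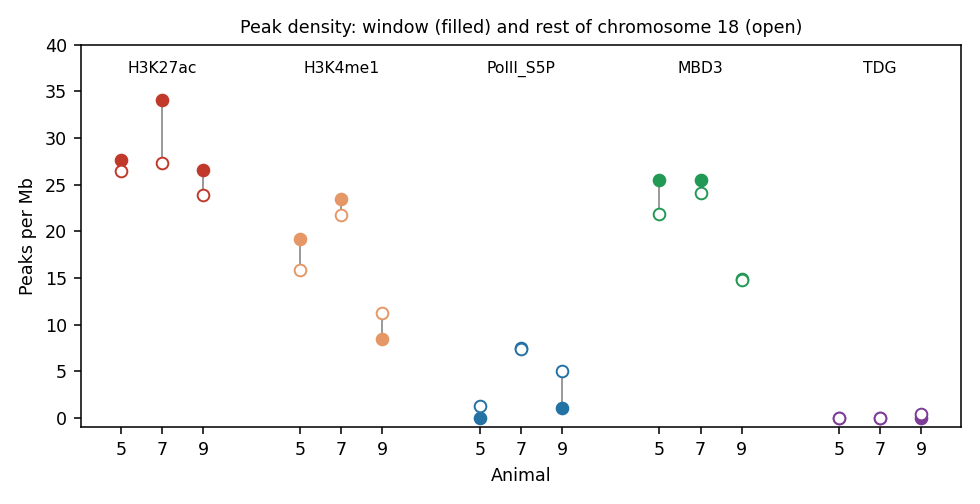
Peaks per Mb (vertical axis) for each antibody and animal (horizontal axis), filled in the window and open in the rest of chromosome 18, with a line joining the values of 1 list. The H3K27ac window values, 27.7, 34.0 and 26.6, sit above their open points, whereas those of PolII_S5P sit below them in animals 5 and 9 and next to them in animal 7.

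For 3 of the 4 antibodies the direction depended on what the window was compared with. Against 5 Mb on either side, the mean log2 ratio was -0.67 for H3K27ac, -0.96 for H3K4me1 and -0.63 for MBD3, each with an exact p of 0.25, and PolII_S5P stayed lower in the window at -1.53. The 940 kb just after the window held 56.3 ± 6.11 H3K27ac peaks (SD, n = 3) and the 940 kb just before it 27.3 ± 6.11, next to 27.7 ± 3.79 in the window itself. MBD3 had 55.0 ± 6.00 after the window, 35.3 ± 3.79 before it and 20.7 ± 5.77 inside it (SD, n = 3). Among 91 stretches of the same length laid end to end along the chromosome, 67.0% had a lower mean count of H3K27ac peaks than the window, 68.1% of H3K4me1, 63.7% of MBD3 and 53.8% of PolII_S5P.

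In bins of 50 kb, the window has 19 bins and the chromosome 1748. H3K27ac occurred in all 3 libraries in 6 of the 19 bins, or 31.6%, where 35.4% of all bins of chromosome 18 had it. MBD3 did so in 5 bins, 26.3% against 35.2%, and H3K4me1 in 3 bins, 15.8% against 17.3%. PolII_S5P did so in none, against 3.89%. The 3 former shares were below those of the chromosome, by most for MBD3. The chromosome's values fall within their exact 95% intervals (12.6 to 56.6%, 9.15 to 51.2% and 3.38 to 39.6%). These intervals are wide and cannot show likeness, and bins of one chromosome are not independent. The MBD3 share was also lower with 25 kb bins (15.8% against 21.9%) and with 100 kb bins (30.0% against 51.0%). With a count of 0 of 19, the interval for PolII_S5P reaches 17.6%. A peak in exactly 2 libraries occurred in 0 bins for H3K27ac (6.46% of the chromosome's bins), 1 for H3K4me1 (9.5%), 1 for PolII_S5P (7.72%) and 2 for MBD3 (10.1%). A peak in exactly 1 library occurred in 3 bins for H3K27ac (15.8% against 6.35%), 3 for PolII_S5P (15.8% against 7.78%), 1 for MBD3 (5.26% against 8.7%) and 0 for H3K4me1 (against 12.6%). The exact 95% intervals of all these shares hold the chromosome's value.

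In 3 bins, H3K27ac, H3K4me1 and MBD3 were each called in all 3 libraries, 15.8% of the window where the chromosome had 13.8%. They start at 37250001, 37300001 and 37950001, and held 38, 37 and 82 peaks over all lists. No peak of any list fell in 8 bins, 42.1% of the window against 37.1% of the chromosome. Of these, 7 are consecutive, from 37400001 to 37750000, and the other one starts at 37800001. The 3 fullest bins of a list held 70.8 to 80.8% of its window peaks for H3K27ac and MBD3 and 94.4 to 100% for H3K4me1. Such shares were not computed for other parts of the chromosome.

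**Figure D3:**
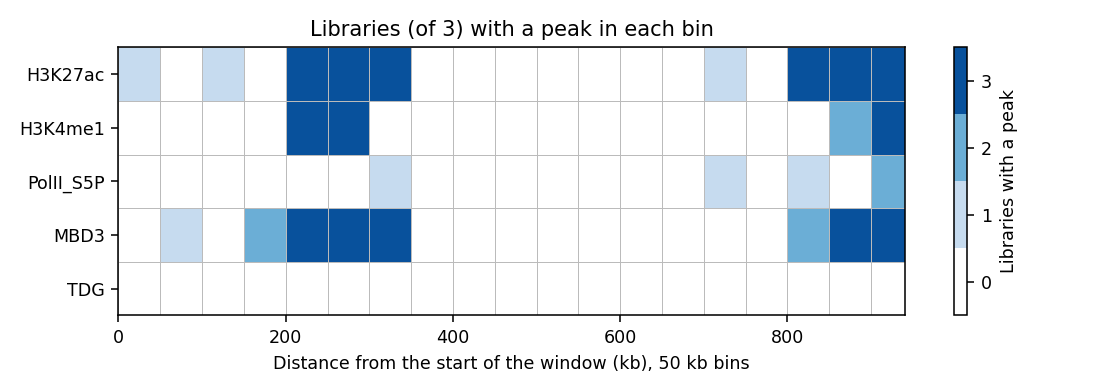
Number of libraries (0 to 3, colour) with a peak in each 50 kb bin of the window (horizontal axis, kb from its start; the last bin is cut at 40 kb by the window's edge) for each antibody (rows). Dark cells form 2 blocks, 7 bins in a row between them are empty for every antibody, and no PolII_S5P cell reaches 3.

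The longest empty stretch was chr18:37351574-37777029, 425 kb without a peak in any of the 15 lists. Of 4806 gaps between neighbouring sites on chromosome 18, 12 were longer, and the median was 2.72 kb. Within single animals the empty stretch was 547, 425 and 543 kb in animals 5, 7 and 9. It was shortest in animal 7, which alone had peaks just after it: PolII_S5P at chr18:37777030-37777469 with a fold enrichment of 3.44, overlapping H3K27ac at chr18:37777420-37777709 with 4.46, and a second H3K27ac peak at chr18:37788682-37789051 with 2.33. Fold enrichment is the authors' ratio of signal to local background in 1 list. Where a region holds several peaks of 1 animal, its fold, rank and summit are those of the peak with the highest fold. Clustered protocadherin genes are paralogs with similar exons, and how reads with several matches were treated is not given in the sources used here; its part in the empty stretch was not tested.

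The first stretch began with H3K27ac in 3 of 3 animals at chr18:37250253-37250793 and ended with a strong, compact site at chr18:37350004-37351573. At this last site H3K27ac had folds of 12.6, 11.2 and 10.9 in animals 5, 7 and 9, above 98.7 to 99.2% of the peaks of each list. Its 3 summits spread over 319 bp. MBD3 reached 16.2, 6.36 and 4.83 there, so animal 5 stood well above the others, and the 3 MBD3 summits lay within 70 bp. PolII_S5P had its highest fold of the window at this site, 6.65 in animal 7 alone, and H3K4me1 had no peak there in any animal. The site stands apart from its neighbours, 24.4 kb after the previous one.

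Between these ends, sites where MBD3 and another antibody were both called lay in 2 places. The first is chr18:37274550-37278872, where H3K27ac peaks had folds of 6.49, 6.87 and 4.98 with summits within 32 bp, MBD3 had 5.48, 6.61 and 4.65, and H3K4me1 occurred in animals 5 and 7 (4.01 and 2.95). The other lies from 37302823 to 37314823. It includes chr18:37305272-37305830, where MBD3 had 9.45, 7.97 and 6.20 with summits within 25 bp while H3K27ac was called in animals 5 and 7 only, at 2.75 and 2.83. In the same group, H3K4me1 was called in 3 animals at chr18:37308969-37310405 (3.40, 2.24 and 3.18). H3K27ac at chr18:37310849-37312435 differed between animals by more, with folds of 8.18, 3.58 and 2.30.

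The second stretch was fullest at its end. The last bin of the window, chr18:37950001-37990000, held 27 H3K27ac, 24 H3K4me1, 26 MBD3 and 5 PolII_S5P peaks, 82 in all. By number of peaks it ranked 41st of the 1748 bins of the chromosome for H3K27ac, 32nd for H3K4me1, 40th for PolII_S5P and 18th for MBD3. H3K27ac peaks covered 72.6%, 68.1% and 53.5% of its 40 kb in animals 5, 7 and 9. By mean share covered, counted over the full 50 kb, this bin ranked 7th for H3K27ac, where the mean over bins was 2.73%, 24th for H3K4me1 and 18th for MBD3. The widest H3K27ac peak of the window lay in this bin in every animal, but at a different place in each. It was chr18:37951719-37961189 in animal 5 (9471 bp), chr18:37972537-37980211 in animal 7 (7675 bp) and chr18:37980536-37986955 in animal 9 (6420 bp).

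At the right end of that bin lay the region with the best mean rank for H3K27ac, for MBD3 and for H3K4me1 among those of the window. H3K27ac at chr18:37980528-37987023 had folds of 13.7, 12.1 and 11.4, ranks 344, 589 and 440 in lists of 66989, 68887 and 58679 peaks. The H3K27ac summits of the 3 animals spread over 1037 bp there. MBD3 at chr18:37984570-37985929 had 17.1, 23.6 and 13.6, with summits at 37985325, 37985326 and 37985378. H3K4me1 at chr18:37980646-37985152 had 5.61, 5.99 and 4.86, ranks 60, 29 and 344 in lists of 33835, 45711 and 22611 peaks, and a second H3K4me1 region at chr18:37985461-37986809 had 3.84, 3.25 and 3.75. The MBD3 summits lay between the highest H3K4me1 summits (37984710, 37984697 and 37984934) and those of the second region (37985821, 37985748 and 37985782) in every animal. No PolII_S5P or TDG peak was called at this site.

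To its left, H3K27ac at chr18:37971198-37980211 had folds of 7.40, 8.76 and 5.23 with summits within 35 bp. MBD3 had a pair of regions inside it, chr18:37974298-37976344 (11.5, 9.50 and 14.6, summits within 16 bp) and chr18:37977237-37977907 (8.44, 11.3 and 6.33, summits within 27 bp). H3K4me1 was called under that block in animal 7 alone, at 1.87. Farther left, H3K27ac at chr18:37951653-37961419 had 9.67, 9.64 and 6.56, with MBD3 at chr18:37951995-37952842 (8.58, 5.43 and 6.92) and H3K4me1 of low fold at chr18:37958397-37959871 (2.81, 2.28 and 2.23). PolII_S5P in the last bin was called 4 times in animal 7 (folds 2.63 to 3.03) and once in animal 9 (3.21), at different positions.

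**Figure D4:**
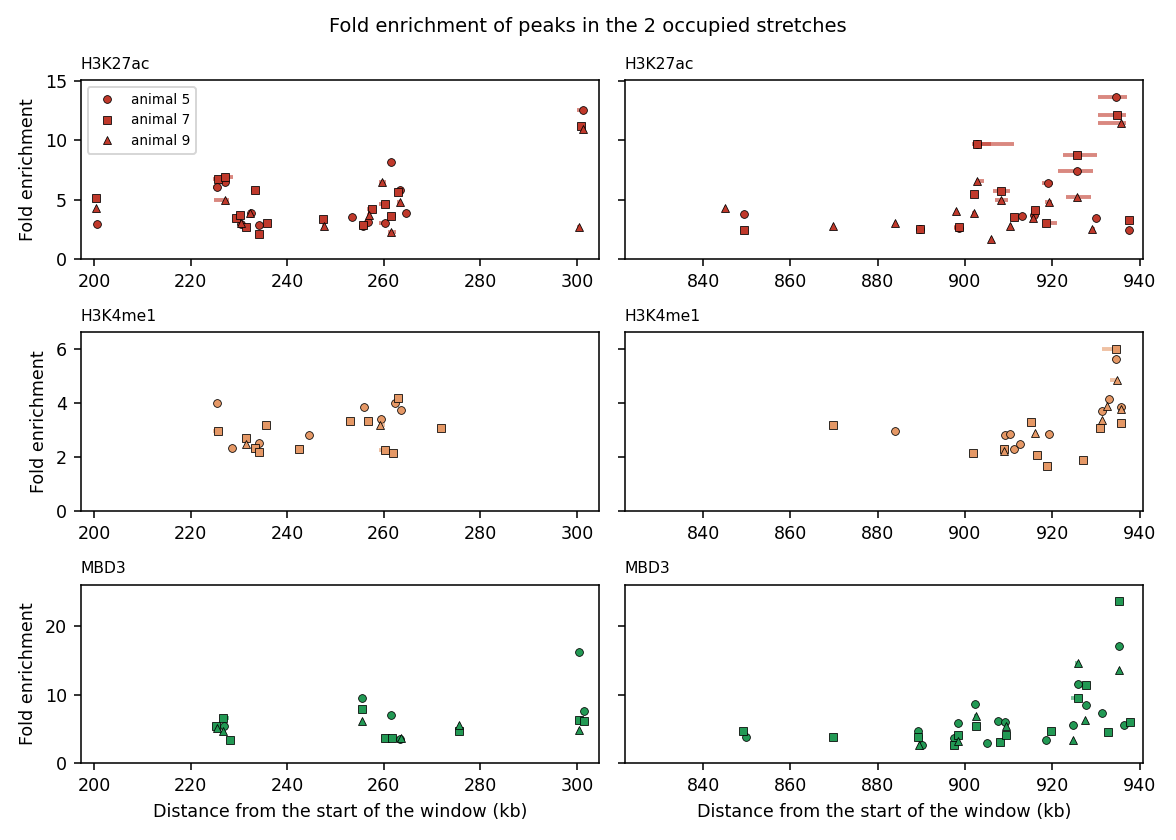
Authors' fold enrichment (vertical axis, linear) of every H3K27ac, H3K4me1 and MBD3 peak in the first stretch (left) and the second (right), by distance in kb from the start of the window; symbols mark summits by animal and lines the extent of the peak. The highest values sit at the right end of each stretch for H3K27ac (12.6 and 13.7 in animal 5), and at the right end of the second for H3K4me1 (5.99) and MBD3 (23.6 in animal 7).

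Over all window peaks, these strong sites included, the median peak of the 3 longer kinds of list was of middling strength. The median fold of the window's H3K27ac peaks lay at the 52.2 ± 3.46 percentile of its list, that of H3K4me1 at 54.3 ± 7.16 and that of MBD3 at 42.9 ± 7.24 (mean ± SD, n = 3 animals). For MBD3 the percentiles were 48.7, 34.8 and 45.3 in animals 5, 7 and 9, each below the 50.7, 49.8 and 52.3 of the rest of the chromosome. Those of H3K27ac and H3K4me1 were above the rest in animals 5 and 9 and below it in animal 7. The 7 PolII_S5P peaks of animal 7 had a median at the 12.6 percentile, against 49.3 for the rest of the chromosome in the same list.

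Merged per antibody over the animals, H3K27ac formed 35 regions in the window, of which 15 had peaks in 3 animals, 6 in 2 and 14 in 1. The share in 3 animals was 42.9%, next to 43.4% in the rest of chromosome 18. MBD3 formed 31 regions, 10 in 3 animals, 6 in 2 and 15 in 1, or 32.3% in 3 animals against 39.7%. H3K4me1 formed 28 regions, 4 in 3 animals, 7 in 2 and 17 in 1, or 14.3% against 17.6%. The 3 shares were below those of the rest, by most for MBD3. The values of the rest lie inside their exact 95% intervals (26.3 to 60.6%, 16.7 to 51.4% and 4.03 to 32.7%), which are wide and cannot show likeness. All 8 PolII_S5P regions were in 1 animal each, where 62.2% of those in the rest were in 1 and 10.6% in 3. The exact 95% interval for 0 of 8 in 3 animals reaches 36.9%. By length, 29.5 kb were covered by H3K27ac in all 3 animals, 53.1% of what it covered in any, against 45.7% in the rest. For MBD3 this was 5.27 kb, 24.9% against 32.2%, and for H3K4me1 3.13 kb, 15.0% against 11.9%. Summits of regions in 3 animals spread over a median of 61.5 bp for MBD3, 367 bp for H3K27ac and 201 bp for H3K4me1, against 59, 188 and 401 bp in the rest of the chromosome.

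H3K27ac, H3K4me1 and MBD3 were each called in at least 2 animals at 6 of the 43 sites, 14.0%, where 8.3% of the 4807 sites of chromosome 18 did. The exact 95% interval of the window's share, 5.30 to 27.9%, holds the latter. These sites are chr18:37274550-37278872, chr18:37310849-37312435 and chr18:37312677-37313736 in the first stretch, and chr18:37951653-37961419, chr18:37967730-37970986 and chr18:37980528-37987023 in the second. None of the 43 also had PolII_S5P in at least 2 animals, against 0.999% of all sites. H3K27ac in 3 animals with no MBD3 peak marked 5 sites, 11.6% against 7.05% of all sites. The exact 95% interval of the window's share here, 3.89 to 25.1%, holds the latter. H3K27ac and MBD3 in 3 animals each marked 6 sites, 14.0% against 12.9% of all sites. MBD3 without any H3K27ac marked 3 sites, 6.98% against 18.3%, within an exact 95% interval of 1.46 to 19.1%.

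Within an animal, MBD3 and H3K4me1 peaks of the window mostly overlapped H3K27ac. Of the MBD3 peaks, 21 of 24, 20 of 24 and 11 of 14 overlapped an H3K27ac peak by at least 1 bp in animals 5, 7 and 9, a mean of 83.1 ± 4.47% against 63.8 ± 1.78% in the rest of the chromosome (SD, n = 3). The difference of 19.3 ± 5.41 percentage points was above 0 in 3 of 3 animals (exact two-sided sign-flip p = 0.25, adjusted p = 0.5 over 6 tests). Of the H3K4me1 peaks, 15 of 18, 18 of 22 and 7 of 8 overlapped H3K27ac, 84.2 ± 2.94% against 57.2 ± 3.79%. This difference of 26.97 ± 5.20 points was also above 0 in 3 of 3 animals (SD, n = 3, exact p = 0.25, adjusted p = 0.5). Both exceeded the spread between animals, but 0.25 is the smallest p the test allows.

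Beside these overlaps, H3K27ac covered more of the window than of the rest, 4.88%, 4.87% and 3.66% against 2.96%, 2.90% and 2.27% in animals 5, 7 and 9. Its peaks were also wider, with a median of 770 ± 133 bp against 627 ± 41.8 bp (mean ± SD, n = 3 animals). The part of this coverage in the overlaps was not tested. In the other direction, 44.1 ± 7.23% of the H3K27ac peaks overlapped MBD3, against 43.1 ± 5.33%, and 33.8 ± 16.0% overlapped H3K4me1, against 30.7 ± 7.62%, differences smaller than their spread between animals (0.91 ± 1.90 and 3.09 ± 8.77 points, SD, n = 3, exact p = 0.5 for each). Between MBD3 and H3K4me1, the overlaps were 24.2 ± 8.59% of MBD3 peaks on H3K4me1 and 31.9 ± 6.94% of H3K4me1 peaks on MBD3 (SD, n = 3), against 21.9 ± 7.37% and 26.5 ± 7.01% in the rest. The difference for H3K4me1 on MBD3, 5.38 ± 4.48 points, was above 0 in 3 of 3 animals (SD, n = 3, exact p = 0.25, adjusted p = 0.5), but by only 0.44 points in animal 7. That for MBD3 on H3K4me1, 2.35 ± 4.48 points, was above 0 in 1 of 3 animals (SD, n = 3, exact p = 1.0). Of the PolII_S5P peaks, 6 of 7 in animal 7 and 1 of 1 in animal 9 overlapped H3K27ac, where 62.0% and 59.1% did in the rest. The exact 95% interval for 6 of 7, 42.1 to 99.6%, holds the value of the rest.

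**Figure D5:**
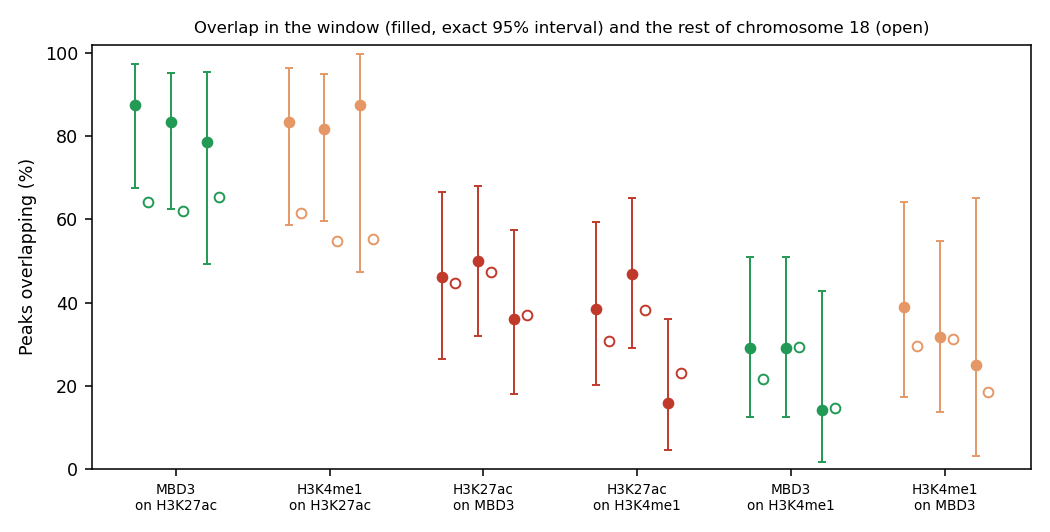
Percent of the peaks of the first-named antibody that overlap a peak of the second in the same animal (vertical axis); filled points with exact 95% binomial intervals are the window, open points the rest of chromosome 18, with animals 5, 7 and 9 from left to right. MBD3 and H3K4me1 on H3K27ac have means of 83.1% and 84.2%, above the rest in 3 of 3 animals; H3K4me1 on MBD3 is also above in 3 of 3, by 5.38 points on average, and the other 3 pairings are above in 1 or 2.

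The window's edges fell in regions without peaks. The last peak before it ended 115 to 172 kb away for H3K27ac, 121 to 122 kb for H3K4me1 and 115 to 133 kb for MBD3, whereas the first peak after it began 19.9 to 20.8 kb away for these 3 antibodies.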

How the data were processed

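Peaks from ChIP-seq of mouse cortex were analysed as 15 lists, 1 per library and not pooled; 3 input samples were not analysed here. The tools named in the submitters' processing notes are MACS2 2.2.7.1, Picard 2.18.29, SAMtools 1.16.1, Trim Galore 0.6.7 and bcl2fastq 2.20, and the builds are mm39 and hg38; positions here are mm39. Which aligner and which control served peak calling is not given in the sources used here. For each peak the authors deposited a score in whole numbers, a ratio of signal to local background called fold enrichment, −log10 p and −log10 q values, and the offset of the summit (another kind of number, in bp from the start). Read depth is unknown, so numbers of peaks cannot be told apart from depth or antibody efficiency. The MBD3 and TDG lists name unplaced contigs differently from the other lists, a difference in processing that cannot be told apart from the antibody. The replicate is the animal, and the labels' animal numbers pair the libraries.

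Only peaks on the autosomes, X and Y were kept, so list totals, ranks and percentiles leave out all others. A peak belonged to the window if it overlapped it by at least 1 bp. Coordinates count from 1. Density ratios had 0.5 added to both counts and were tested by exact two-sided sign flips over animals; antibodies were compared by exact permutation of libraries; p-values were adjusted by the Benjamini-Hochberg method. Shares carry exact Clopper-Pearson 95% intervals. Shares of bins, regions and sites were not tested, since they are not replicates. TDG had too few peaks for a ratio. Regions named are, for each antibody, up to 5 present in 3 animals that ranked best by mean fold rank. H3K4me1 had only 4 such regions, all named, and PolII_S5P and TDG had none. Also named are the sites with several antibodies, and the fullest and empty bins. Other positions were chosen after their values were seen. The window, lists and tests were chosen with earlier results of these data known. Gene names, used only for counts and order, come from RefSeq's GRCm38.p6 table; marker genes were not run for want of an mm39 annotation. Scripts were tested on simulated data. Software was matplotlib 3.10.9, scipy 1.17.1, pandas 2.3.3, numpy 2.4.6 and Python 3.11.15.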

Additional observations from a re-analysis of the deposited data

How the results depend on the processing

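Of 153 alternative values, 136 kept the direction and side of the threshold of 0.05, 15 changed direction and 2 crossed the threshold. Many of the 136 were fixed beforehand. Shares of bins and regions had no test and cannot change sign, and the sign-flip and pair tests cannot give a p below 0.05. Only the comparison across antibodies could cross the threshold, so the count of 136 is no measure of how well the results hold. With 5 Mb on either side as the reference, the log2 density ratio turned to -0.67 for H3K27ac, -0.96 for H3K4me1 and -0.63 for MBD3. It also turned to -0.12 for H3K4me1 with peaks within 500 bp merged and to -0.026 for MBD3 with lists of equal length. Elsewhere it kept its direction but moved by over 1.5 times: H3K27ac 0.72 by covered bases and 0.12 with merged peaks, MBD3 0.040 at −log10 q of at least 5, 0.019 merged and 0.033 against all autosomes. PolII_S5P gave -4.18 by covered bases, -1.53 against 5 Mb and -0.45 with 1 peak added. The -4.18 rests largely on animal 5, where PolII_S5P covered 0 bases of the window and 1 was added. It covered 0.266% against 0.406% in animal 7 and 0.0362% against 0.240% in animal 9. H3K4me1 gave 0.51 at −log10 q of at least 5, 0.25 against all autosomes, 0.15 by covered bases, 0.088 with lists of equal length and 0.097 with 1 peak added. Leaving out each animal gave -0.085 to 0.23 for H3K4me1, 0.14 to 0.26 for H3K27ac, 0.083 to 0.18 for MBD3 and -1.48 to -0.59 for PolII_S5P. It gave -0.011 to 0.35 for H3K27ac minus H3K4me1, -0.019 to 0.18 for H3K27ac minus MBD3 and -0.17 to 0.044 for H3K4me1 minus MBD3. The share of variance by antibody crossed the threshold at 0.536 (exact permutation p = 0.000779) for covered bases, where 1 base was added and PolII_S5P of animal 5 has 0. It also did so at 0.601 (exact permutation p = 0.0131) for −log10 q of at least 5. At that cut PolII_S5P had 0, 2 and 0 window peaks in animals 5, 7 and 9, so its ratios in animals 5 and 9 rest on the 0.5 added. Neither of these tests used the pairing by animal. The share was 0.931 without animal 7 (exact p = 0.143) and 0.420 and 0.474 without animals 5 and 9. The overlap of H3K27ac with MBD3 turned to -2.63 points by summits, -6.58 with at least 0.5 of the peak covered and -2.56 at −log10 q of at least 5. With 0.5 covered, H3K27ac on H3K4me1 turned to -1.46 and H3K4me1 on MBD3 to -0.20. MBD3 on H3K4me1 ranged from -0.23 to 3.68 when each animal was left out. For these the cause was not tested. The replicate block by animal (0.675, exact p = 0.115 across antibodies) changed no call.

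Precision is limited by 3 animals and, for PolII_S5P and TDG, by short lists.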
